A study of Mus musculus with 11 samples.

Results

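The mast cell genes followed here were Cma1, Cpa3, Mcpt4, Tpsb2, Hdc, Kit and Fcer1a, 7 of the 18193 genes with a probe set of their own. They were measured by 10 of the 45037 probe sets tested on each array. They were chosen by gene symbol as proteases and markers of mast cells, after Cma1 and Cpa3 had been seen to be lower at postnatal day 12 (P12) than at day 1 (P1) on these same arrays. Every probe set that carries one of these symbols alone was used, and 0 probe sets held one of them among several symbols. The cells came from Pax3GFP/+ mice on a C57BL/6J background, in which green fluorescent protein (GFP) is made from a Pax3 allele, and all groups carry this allele. Live GFP-positive cells were sorted from digested muscle by flow cytometry, from trunk muscle described as holding proliferating satellite cells at P1 (4 arrays) and P12 (4 arrays), and from abdominal, pectoral and intercostal muscle described as holding satellite cells at postnatal day 28 (P28, 3 arrays). The gate is the activity of the Pax3 locus, not a mast cell marker, and the labels give neither the number of animals per array nor their sex. Arrays are called biological replicates, so the errors below measure the spread between such samples.

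Mast cells are tissue-resident immune cells of haematopoietic origin that lie along vessels and nerves, in skeletal muscle among other connective tissues. Their granules hold proteases bound to heparin and serglycin, together with histamine. They depend on the receptor Kit and its ligand stem cell factor, and they release their granules when antigen crosslinks IgE on the Fc epsilon receptor. Cma1 encodes mast cell protease 5, a chymase-family protease, and Cpa3 encodes carboxypeptidase A3, which is stored with it in connective tissue mast cells. Mcpt4 encodes a further chymase of those cells and Tpsb2 a tryptase. Hdc encodes histidine decarboxylase, which makes histamine and is also made by neutrophils, basophils and their precursors. Fcer1a encodes the IgE-binding chain of the receptor.

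GATA factors are known regulators of mast cell genes, so the stretch of 250 bases before the transcription start was searched for GATAA on both strands (TTATC on the printed strand). The promoters of the members whose values moved most on these arrays are shown, 5' to 3' on the strand of the gene, with matches in capitals. They are taken from RefSeq (GRCm38.p6), at chr14:55944676-55944925 for Cma1, chr3:20242182-20242431 for Cpa3, chr14:56062311-56062560 for Mcpt4 and chr2:126618679-126618928 for Hdc, all on the minus strand.
Cma1: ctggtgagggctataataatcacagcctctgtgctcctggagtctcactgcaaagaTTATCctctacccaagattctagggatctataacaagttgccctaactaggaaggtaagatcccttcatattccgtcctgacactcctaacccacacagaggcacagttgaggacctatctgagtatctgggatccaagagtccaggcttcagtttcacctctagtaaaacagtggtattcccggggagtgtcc
Cpa3: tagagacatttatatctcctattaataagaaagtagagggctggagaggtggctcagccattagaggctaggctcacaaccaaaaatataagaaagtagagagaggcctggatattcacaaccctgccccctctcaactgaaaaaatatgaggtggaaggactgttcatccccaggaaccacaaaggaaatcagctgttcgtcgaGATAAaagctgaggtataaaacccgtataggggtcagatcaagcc
Mcpt4: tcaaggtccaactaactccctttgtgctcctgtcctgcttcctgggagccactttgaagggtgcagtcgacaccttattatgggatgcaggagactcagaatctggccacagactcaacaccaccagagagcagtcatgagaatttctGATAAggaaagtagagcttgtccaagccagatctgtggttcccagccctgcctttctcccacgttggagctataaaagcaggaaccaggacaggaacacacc
Hdc: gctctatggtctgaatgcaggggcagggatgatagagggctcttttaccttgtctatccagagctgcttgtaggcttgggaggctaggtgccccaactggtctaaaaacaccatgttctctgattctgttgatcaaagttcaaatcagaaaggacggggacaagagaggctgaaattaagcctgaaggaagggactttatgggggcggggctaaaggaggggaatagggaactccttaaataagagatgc
The Cma1 window holds 1 match on the reverse strand, which begins 194 bases before the start. The Cpa3 window holds 1 forward match that begins 45 bases before the start, and the Mcpt4 window 1 forward match at 102 bases. The Hdc window holds 0 matches. Of the 6 members with a window in the table, 4 had a match (Fcer1a is the other one, 92 bases before its start), and Kit and Hdc had none. Of all 32851 windows of the same length, 22.6% held at least 1 match. These matches describe the letters of the windows and say nothing of binding.

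Each value is the log2 level of a probe set, made by the authors with RMA, which corrects background, equalises the arrays' distributions and summarises the probes of a set. They carry no detection call. A background line was therefore drawn on each array, 1 log2 unit above the brightest of the bacterial TrpnX control probe sets. The line lay between 4.72 and 4.82 for P1 arrays, 4.70 and 4.96 for P12 arrays and 4.54 and 4.73 for P28 arrays, and 60.1% to 68.2% of the probe sets of an array were above it. Cma1, the first probe set of Hdc (1451796_s_at) and that of Tpsb2 (1422180_a_at) were above it on all 11 arrays. Cpa3 was above it on 7, the second probe set of Hdc (1454713_s_at) on 6 and Mcpt4 on 3. The second probe set of Kit (1452514_a_at) was above it on 1 array, and Fcer1a, the other probe set of Kit (1415900_a_at) and the second of Tpsb2 (1451802_at) were above it on 0 arrays. Of the receptors that define mast cells, Kit was thus above the line on 1 array by 1 probe set, and Fcer1a on none. Near that line a log2 difference understates a change in RNA.

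**Figure D1:**
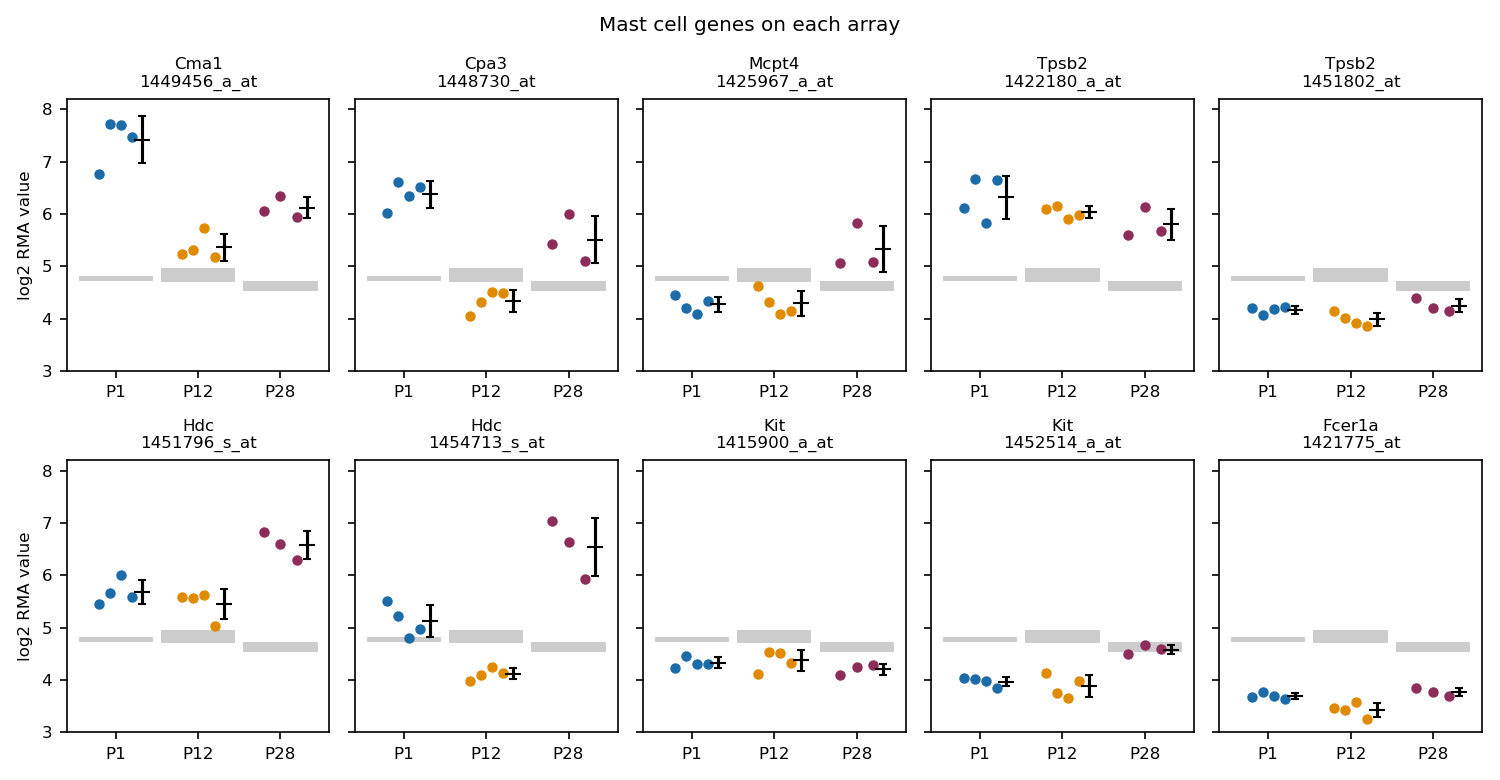
Log2 RMA value of each mast cell probe set at P1, P12 and P28, 1 point per array, with the mean ± SD to the right of each age (n = 4, 4 and 3). The grey band spans the background lines of the arrays of that age. Cma1 and Cpa3 are highest at P1 and lowest at P12, both Hdc probe sets and Mcpt4 are highest at P28, and Kit and Fcer1a stay at or under the band.

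Other facts of the arrays bear on every comparison below. The P28 arrays come from another list of muscles and carry another suffix in their internal names than the P1 and P12 arrays, so age, muscle and a possible batch cannot be told apart. Those internal names also begin with the day code of the P1 arrays, against the titles and stated age of the P28 samples, which were followed here. The log2 difference between the 3' and 5' Gapdh control probe sets, a measure of RNA integrity, was 1.62 to 2.79 at P1, 1.32 to 3.05 at P12 and 0.79 to 0.99 at P28. It was higher in replicates 1 and 2 of P1 and P12 (array set 1) than in replicates 3 and 4 (array set 2). The female-specific RNA Xist read 9.89 on the array of P1 replicate 1 but only 2.81 to 3.29 on the remaining P1 arrays, whereas it read 9.47 to 10.8 on those of P12 and 9.97 to 11.1 on those of P28. Xist thus differed between P1 arrays of the same age, while every P12 and P28 array read high. In comparisons with P1, age and the sex that Xist marks cannot be told apart. Values given without P1 replicate 1 set P1 arrays that all read low against arrays that all read high. P1 replicate 1 stood apart in myeloid markers too. The summed level of 8 neutrophil genes (log2 of the summed linear values) was 10.77 there and 9.04 to 9.14 on the other P1 arrays, and that of 10 macrophage genes was 10.32 against 11.10 to 11.17.

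Cma1 was at 6.77, 7.72, 7.71 and 7.47 on the P1 arrays, at 5.23, 5.31, 5.74 and 5.18 on the P12 arrays and at 6.06, 6.34 and 5.95 on the P28 arrays. All P12 arrays lay below all P28 arrays, and these below all P1 arrays. The means were 7.42 ± 0.45 (SD, n = 4), 5.36 ± 0.26 (SD, n = 4) and 6.12 ± 0.20 (SD, n = 3). P12 was lower than P1 by a log2 difference of 2.06 ± 0.20 (SE of the limma fit), or 4.16-fold, which is among the values that chose the gene and is given as a description. Within array sets 1 and 2 that difference was -1.98 and -2.13, and without P1 replicate 1, the lowest of its group, it was -2.27. P28 remained 1.30 ± 0.22 (SE) below P1, also as a description.

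Cpa3 showed the same order of ages. It was at 6.02, 6.61, 6.35 and 6.51 at P1, at 4.06, 4.33, 4.52 and 4.48 at P12 and at 5.43, 6.00 and 5.11 at P28, and no array of one age overlapped with those of another. All 4 P12 values were under the background line, while the P1 and P28 values were above it. The means were 6.37 ± 0.26, 4.35 ± 0.21 and 5.51 ± 0.45 (SD, n = 4, 4 and 3). The description of P12 against P1 is a log2 difference of -2.03 ± 0.19 (SE), or 4.08-fold, with -2.12 and -1.93 within array sets 1 and 2 and -2.15 without P1 replicate 1. P28 lay 0.86 ± 0.20 (SE) below P1. In P1 replicate 1 both Cma1 and Cpa3 were at their lowest for that age, and in P28 replicate 2 both were at their highest for that age.

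Mcpt4 and Tpsb2, the other granule proteases among the members, did not share this order. Mcpt4 was at 4.45, 4.21, 4.10 and 4.33 at P1 and at 4.62, 4.32, 4.08 and 4.15 at P12, all under the background line, and at 5.06, 5.83 and 5.09 at P28, all above it. P12 minus P1 was 0.02 ± 0.18 (SE) and P28 minus P1 1.06 ± 0.19 (SE). The brighter probe set of Tpsb2, the tryptase, was at 6.12, 6.66, 5.83 and 6.66 at P1, at 6.09, 6.16, 5.90 and 5.99 at P12 and at 5.60, 6.13 and 5.67 at P28. Its arrays overlapped in every pair of ages, with differences of -0.28 ± 0.19 (SE) for P12 minus P1 and -0.52 ± 0.20 (SE) for P28 minus P1. The second probe set of Tpsb2 ran from 3.86 to 4.39 over the 11 arrays and overlapped likewise.

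Hdc is read by a pair of probe sets of the type whose probes can match more than 1 transcript, and they differed at the early ages. The first was at 5.46, 5.67, 6.00 and 5.60 at P1, at 5.58, 5.58, 5.64 and 5.03 at P12 and at 6.83, 6.61 and 6.29 at P28. The second was at 5.52, 5.23, 4.81 and 4.98 at P1, at 3.99, 4.11, 4.25 and 4.13 at P12, under the line, and at 7.04, 6.64 and 5.94 at P28. Both were highest at P28 on every array, and P28 exceeded P1 by 0.90 ± 0.18 and 1.41 ± 0.22 (SE). Only the second was lower at P12 than at P1 on every array, by 1.01 ± 0.21 (SE), and within array sets 1 and 2 that difference was -1.32 and -0.70. For the first it was -0.22 ± 0.17 (SE), and within the array sets it was 0.02 and -0.47.

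The receptors were low throughout. The first probe set of Kit ran from 4.22 to 4.47 at P1, 4.12 to 4.54 at P12 and 4.09 to 4.29 at P28, and its ages overlapped. The second ran from 3.84 to 4.04 at P1, 3.66 to 4.13 at P12 and 4.49 to 4.66 at P28, so P28 was apart from both earlier ages but at the level of the background line. Fcer1a ran from 3.63 to 3.76 at P1, 3.25 to 3.58 at P12 and 3.70 to 3.86 at P28. Its P12 arrays lay below all others, by 0.26 ± 0.11 (SE) against P1, all under the background line.

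**Figure D2:**
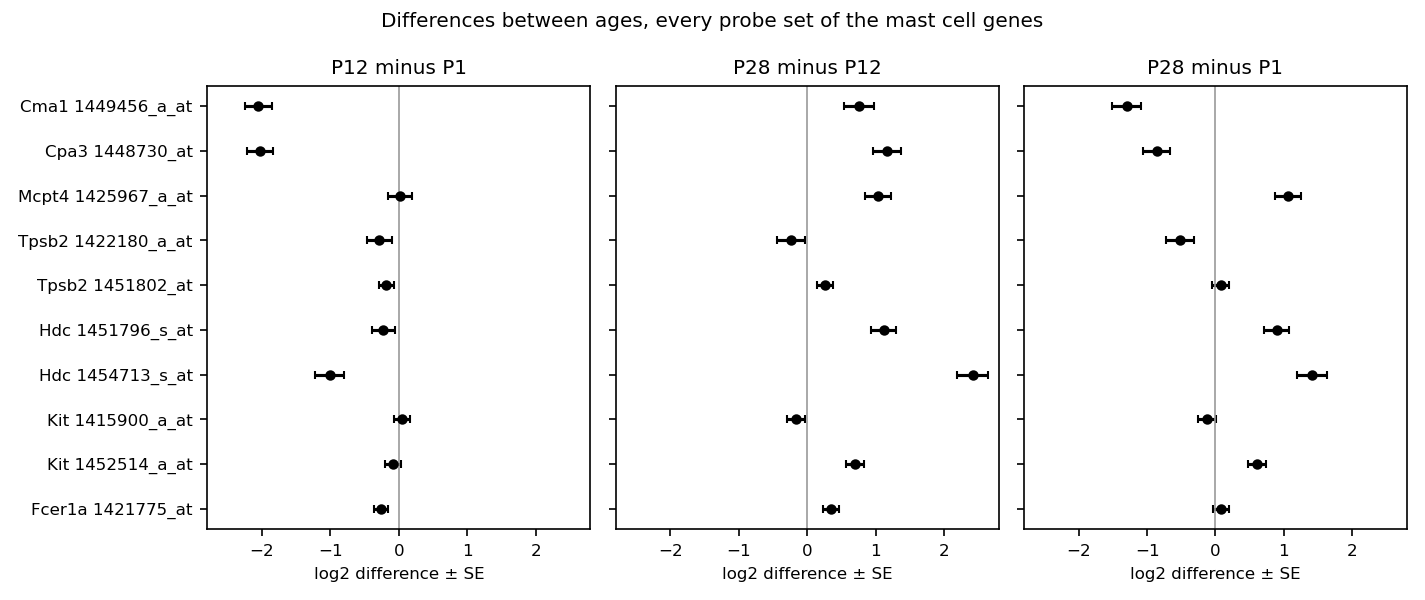
Log2 difference ± SE of the limma fit for every mast cell probe set in P12 minus P1, P28 minus P12 and P28 minus P1, over 4, 4 and 3 arrays. Cma1 and Cpa3 are the probe sets near -2 in P12 minus P1, and the second probe set of Hdc is the one above 2 in P28 minus P12. The comparisons share arrays, so their values are not independent of each other.

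Counted by arrays, 4 of the 10 probe sets (Cma1, Cpa3, Fcer1a and the second of Hdc) were lower on every P12 array than on every P1 array, where 4.16% of all probe sets were. The other direction held 0 of the 10, against 6.18% of all. The members were chosen on this comparison, so nothing is read from these counts. The median difference of the 10 was -0.24, beside 0.01 over all probe sets. In P28 against P1, 4 probe sets (both of Hdc, Mcpt4 and the second of Kit) were higher without overlap, where 19.3% of all were, and 2 (Cma1 and Cpa3) were lower, where 21.4% of all were. Fewer cells of a type and less RNA per cell cannot be told apart in such bulk samples.

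P28 against P12 is the comparison of successive ages that did not choose the members, although it uses the same P12 arrays, on which Cma1 and Cpa3 had been seen low. A low P12 value raises this difference, so it is no independent test of Cma1 and Cpa3, which are both counted among those that rose. In it 7 of the 10 probe sets rose and 0 fell at an adjusted p under 0.05 (limma over all 45037 probe sets, Benjamini-Hochberg), where 13.5% of all rose and 15.9% fell. By array order, 7 were higher on every P28 array than on every P12 array, against 15.4% of all, and 0 lower, against 19.9%. At an unadjusted p under 0.05, 8 were higher and 0 lower, but the share over all probe sets at that threshold was not counted. The median difference of the 10 was 0.73, beside -0.05 over all probe sets. With the Gapdh 3' to 5' difference as a covariate, 5 rose and 0 fell, where 4946 of all rose and 3751 fell. The Gapdh difference was lower on every P28 array than on all P1 and P12 arrays. Used as a covariate, here and below, it therefore cannot separate RNA integrity from age in comparisons with P28.

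Cpa3 and Cma1 had been seen low on the P12 arrays before the members were chosen, so their adjusted p values here are no independent test. Among the proteases, Cpa3 rose by 1.17 ± 0.20 (SE, adjusted p = 0.000748, limma) and Mcpt4 by 1.03 ± 0.19 (adjusted p = 0.0011). Cma1 rose by 0.76 ± 0.22 (adjusted p = 0.0175). That call ended without P28 replicate 2 (0.64, adjusted p = 0.0761) and with the Gapdh 3' to 5' difference as a covariate (0.57, adjusted p = 0.176), and the adjusted p ran from 0.00281 to 0.176 over its alternatives. Tpsb2 was at -0.23 ± 0.20 and 0.26 ± 0.12 for its probe sets and did not pass (adjusted p = 0.421 and 0.12). The second value passed after a further quantile normalization (0.34, adjusted p = 0.0329).

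Hdc rose by 1.12 ± 0.18 (SE, adjusted p = 0.000447) and 2.42 ± 0.22 (adjusted p = 4.67e-06) in limma, and these were the members with the smallest adjusted p. Both calls were kept under every alternative run, with adjusted p up to 0.00416 and 9.62e-05. Of the receptors, the second probe set of Kit rose by 0.70 ± 0.13 (adjusted p = 0.00127) and the first was at -0.17 ± 0.13 (adjusted p = 0.369). Fcer1a rose by 0.34 ± 0.11 (adjusted p = 0.0357), under the background line on all arrays. The Fcer1a call ended in 9 alternatives, among them leaving out any of P12 replicates 1, 2 and 4 (0.36, 0.34 and 0.29) and any of P28 replicates 1, 2 and 3 (0.30, 0.35 and 0.38). Of the 10968 probe sets above the line on no array, 2.05% rose and 6.1% fell in this comparison.

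Markers of other blood cells moved between the same ages. All 8 of 8 neutrophil genes rose from P12 to P28, with a median of 4.46, among them the granule proteins S100a9 (5.78 ± 0.39), S100a8 (5.53 ± 0.46) and Ngp (4.89 ± 0.46). Their summed level was 8.63 to 9.43 at P12 and 13.4 to 14.7 at P28, and its lowest P28 value was in replicate 3. Both Hdc probe sets, Cma1 and Cpa3 were also at their lowest for P28 there, as were Fcer1a and the second probe set of Tpsb2, both under the background line. Mcpt4 (5.06), the brighter probe set of Tpsb2 (5.60) and both of Kit were lowest in P28 replicate 1. The neutrophil sum, Cma1 and Cpa3 were highest in P28 replicate 2, and both Hdc probe sets in P28 replicate 1. In P1 replicate 1 the neutrophil sum was the highest of its age, but Cma1 and Cpa3 were the lowest. These orders carry no test. Of 10 macrophage genes 4 rose and 0 fell, with summed levels of 10.1 to 10.5 at P12 and 11.5 to 12.6 at P28. Highest in that list were 3 genes, Csf1r (0.70 ± 0.33, which did not pass), C1qb (0.94 ± 0.34, which did not pass) and the lysozyme Lyz2, which rose by 4.04 ± 0.25. Of 7 genes shared by leukocytes 4 rose, including Laptm5 (1.18 ± 0.33), Cd53 (2.82 ± 0.21, also in the wider mast cell list below) and Coro1a (2.25 ± 0.43). The part of these cells in the values of Hdc, Mcpt4, Cma1 and Cpa3 was not tested.

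Basophils share Fcer1a and Hdc with mast cells. Of 3 basophil genes measured, all of them also in the wider mast cell list, 0 rose and 0 fell from P12 to P28, their summed level was 5.61 to 5.81 at P12 and 5.77 to 5.82 at P28, and Cd200r3 and Il4 were above the background line on no array. Mcpt8, a basophil protease, was at 4.31, 4.38 and 4.70 on average at P1, P12 and P28. It was above the background line on all 3 P28 arrays and on 0 arrays of P1 and P12. Its P28 arrays all lay above its P12 arrays, by 0.32 ± 0.12 (SE), which did not pass (adjusted p = 0.0593, limma). Melanocytes of the Pax3 lineage also make Kit. Of 7 melanocyte genes 1 rose, Ednrb (1.95 ± 0.26), which endothelial cells also make, while Tyr, Tyrp1 and Mlana were above the line on no array and Sox10 and Pmel were at 0.10 ± 0.16 and -0.02 ± 0.11. The summed level of the list was 8.13 to 8.28 at P12 and 8.72 to 9.39 at P28.

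Between P1 and P12, by contrast, the 8 neutrophil genes had 0 that rose and 0 that fell, with a median of -0.13. The macrophage list had a median of -0.42, and Cd68, a lysosomal protein, fell by 1.38 ± 0.22 while the other 9 genes did not pass. Its summed level was 10.3 to 11.2 at P1 and 10.1 to 10.5 at P12. Leukocyte genes had 1 that rose, Itgb2 (0.79 ± 0.20), and 0 that fell, and the melanocyte and basophil lists had 0 in either direction. In lists of other tissue cells, 6 of 6 endothelial, 3 of 5 fibroblast and 3 of 4 erythroid genes rose from P12 to P28, and 0 fell. From P1 to P12 these lists had 1 call, Pdgfra of the fibroblast list (-1.45 ± 0.29). Lymphocyte genes (0 of 4 in P12 against P1, then 1 up and 1 down) and Schwann cell genes (0 of 4 in both steps) had few calls. The satellite cell list was the gate's own population and had 1 of 9 up from P1 to P12, 2 of 9 up from P12 to P28 and 0 down in both. Pax3, whose locus carries GFP, was at 8.29, 8.60 and 8.48 on average and did not pass in either step.

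**Figure D3:**
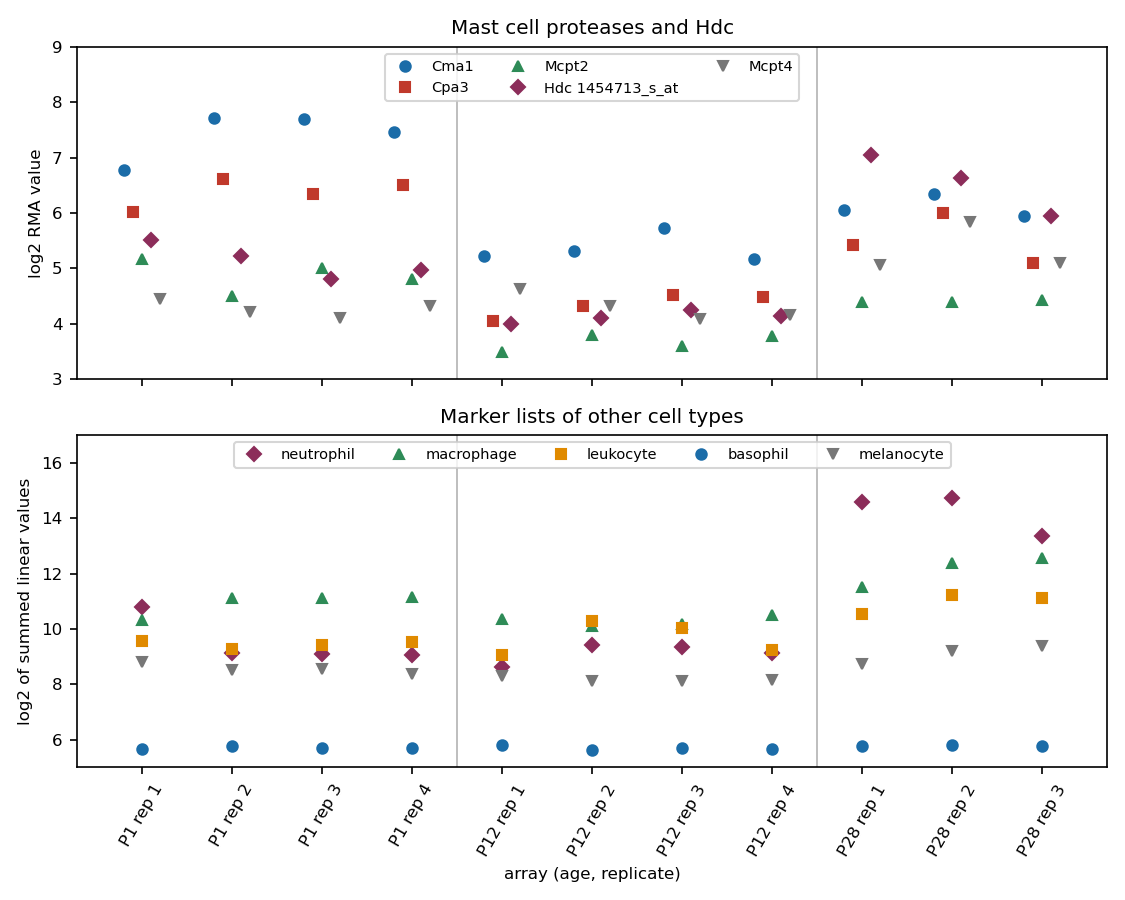
Upper panel, log2 RMA values of Cma1, Cpa3, Mcpt2, Mcpt4 and the second Hdc probe set on each of the 11 arrays (points are set slightly apart within an array). Lower panel, log2 of the summed linear values of marker lists of 5 other cell types on the same arrays. The neutrophil list is at 13.4 to 14.7 on the P28 arrays and at 10.77 in P1 replicate 1, while Cma1 and Cpa3 are highest at P1.

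A wider list of mast cell genes that holds none of the 7 members was examined in the same fit. It named 48 genes, 42 of which had a probe set with that symbol alone (71 probe sets), while Mcpt9, Mrgprb2, Il1rl1, Ptgs1, Cd63 and Lyn had none. The 71 include the probe sets of Kitl, which stromal cells make, so the counts below are not of mast cell genes alone. From P1 to P12, 2 of the 71 probe sets fell and 0 rose, where 1.59% of all fell and 3.25% rose, and the list's median was -0.07. At an unadjusted p under 0.05, 2 were higher and 10 lower. The share over all probe sets at that threshold was not counted, so nothing is read from it. Mcpt2, a chymase best known from mucosal mast cells, fell by 1.21 ± 0.14 (SE, adjusted p = 0.000443, limma), with -1.19 and -1.23 within array sets 1 and 2. It was at 5.17, 4.50, 5.02 and 4.81 at P1, at 3.48, 3.80, 3.59 and 3.79 at P12 and at 4.40, 4.40 and 4.43 at P28. All its P12 arrays lay below all P28 arrays and these below all P1 arrays, as for Cma1 and Cpa3, though only 3 of its 11 values were above the background line. Alox5ap, which activates 5-lipoxygenase for leukotriene synthesis in many leukocytes, fell by 0.60 ± 0.13 (adjusted p = 0.0216). Leaving out P1 replicate 3 (-0.59), P1 replicate 4 (-0.59) or P12 replicate 1 (-0.51) ended that call, and 1 probe set of the list then fell. Over all probe sets 436, 371 and 378 fell in these fits.

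From P12 to P28, 24 of the 71 probe sets rose and 2 fell, beside the 13.5% and 15.9% of all given above, with a median of 0.28. With the Gapdh covariate 18 rose and 1 fell, where 4946 of all 45037 rose and 3751 fell. Without the covariate, by the brightest probe set of each gene, 13 of 42 genes rose and 1 fell. A fit of 1 probe set per gene gave the same counts, where 2860 of all 18193 genes rose and 2856 fell. The largest changes were in genes that other leukocytes share. Serglycin (Srgn), the proteoglycan core of granules, rose by 3.03 ± 0.21, Cd53 by 2.82 ± 0.21, Alox5ap by 2.56 ± 0.14, the prostaglandin synthase Ptgs2 by 2.47 ± 0.31, Plek by 2.11 ± 0.24, the neutrophil and mast cell protease Ctsg by 1.81 ± 0.33 and Fcer1g, the signalling chain of Fc receptors, by 1.41 ± 0.23. The kinase Syk (0.72 ± 0.18) and the transcription factor Gata1 (0.80 ± 0.20), which erythroid cells also make, rose as well. Mcpt2 rose by 0.75 ± 0.15 (adjusted p = 0.00238). Slc18a2, the vesicular transporter that loads histamine, fell by 0.89 ± 0.17 (adjusted p = 0.00115), and the other probe set that fell was one of Ptger3, above the line on no array. The calls of Csf2rb (0.51 ± 0.16), Lat2 (0.42 ± 0.12) and Adora3 (0.41 ± 0.13) each ended when at least 1 of several arrays was left out. For Csf2rb these were P12 replicates 1 and 2 and P28 replicates 2 and 3 (0.46, 0.46, 0.49 and 0.41), for Lat2 P28 replicates 1 and 2 (0.39 and 0.38), and for Adora3 each P12 array but replicate 4 (0.40, 0.39 and 0.42) and each P28 array (0.39, 0.45 and 0.37). With the Gapdh 3' to 5' covariate these 3 calls ended too, at 0.23 for Csf2rb (adjusted p = 0.405), 0.41 for Lat2 (adjusted p = 0.0934) and 0.49 for Adora3 (adjusted p = 0.0562). The call of Adora3 also ended with the replicate number as a block (0.37, adjusted p = 0.0749). The rise of neutrophil genes given above accompanied these changes and its part in them was not tested.

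In P28 against P1, 27 of the 71 probe sets rose, where 17.6% of all did, and 7 fell, where 17.4% of all did. With the Gapdh covariate the 27 became 18 and the 7 became 1, where 6801 of all 45037 rose and 4362 fell. The 7 became 4 with the replicate block, 3 without P28 replicate 1 or 3 and 4 without P1 replicate 3 or P28 replicate 2. Over all probe sets 8125 fell with the block and 6195 and 6598 without P28 replicates 1 and 3. Without P1 replicate 3 and P28 replicate 2, 7269 and 6114 of all fell. After a further quantile normalization 30 rose and 3 fell, where 7246 and 8756 of all did. By the brightest probe set, 15 genes rose and 6 fell. The fit of 1 probe set per gene gave the same counts, where 3664 of all 18193 genes rose and 2992 fell. This comparison shares its P28 arrays with the one before it. Srgn rose by 3.35 ± 0.21, Cd53 by 2.82 ± 0.21, Ptgs2 by 1.98 ± 0.31, Alox5ap by 1.96 ± 0.14, Ctsg by 1.53 ± 0.33, Plek by 1.35 ± 0.24 and Fcer1g by 1.29 ± 0.23. Syk and Adora3 rose by 0.76 ± 0.18 and 0.57 ± 0.13. Csf2rb rose by 0.77 ± 0.16, a call that ended with the Gapdh covariate (0.46, adjusted p = 0.0775). Gata1 (0.66 ± 0.20) and Lat2 (0.43 ± 0.12) passed too, but the call of Gata1 ended without P1 replicate 3 or 4 or P28 replicate 1 or 2 (0.57, 0.55, 0.57 and 0.53) and that of Lat2 without P28 replicate 1 or 2 (0.39 and 0.38) or with the covariate (0.42, adjusted p = 0.0858). Slc18a2 fell by 1.05 ± 0.17 and the pancreatic-type carboxypeptidase Cpa1 by 0.53 ± 0.14, which did not pass with the Gapdh covariate (-0.53, adjusted p = 0.0501). Tpsab1 (-0.38 ± 0.12) and Tpsg1 (-0.43 ± 0.14), tryptases, fell, as did Ndst2 (-0.40 ± 0.14), the enzyme that sulphates mast cell heparin, and Mcpt2 (-0.46 ± 0.15). All 4 calls ended with the covariate (-0.41, -0.23, -0.31 and -0.52), those of Tpsab1, Tpsg1 and Mcpt2 with quantile normalization (-0.27, -0.32 and -0.35) and those of Tpsab1, Ndst2 and Mcpt2 with the replicate block (-0.37, -0.40 and -0.45). With the covariate the differences of Tpsab1 and Mcpt2 did not shrink, although their calls ended. Each also ended when an array was left out. For Tpsab1 the arrays were P1 replicate 4 and each P28 array (-0.31 to -0.40), for Tpsg1 P1 replicate 2 (-0.39) and P28 replicate 3 (-0.30), for Ndst2 each P1 array but replicate 2 and P28 replicates 1 and 2 (-0.35 to -0.41), and for Mcpt2 P1 replicates 1 and 3 and each P28 array (-0.36 to -0.47). Mitf, a transcription factor of mast cells and melanocytes, rose by 0.58 ± 0.15 and Mcpt8 by 0.39 ± 0.12. The Mcpt8 call ended without P28 replicate 1 (0.36, adjusted p = 0.0702) and with the covariate (0.35, adjusted p = 0.125).

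Kitl, the ligand of Kit that stromal cells make, is read by 4 probe sets. The brightest was at 5.94 ± 0.24, 6.51 ± 0.20 and 6.60 ± 0.44 (SD, n = 4, 4 and 3) and rose by 0.66 ± 0.20 (adjusted p = 0.0185) between P1 and P28, a call that ended without P28 replicate 2 (0.48) or 3 (0.59) and with the Gapdh covariate (0.52, adjusted p = 0.172). It did not pass in the steps between (adjusted p = 0.0944 and 0.791). The other 3 probe sets each rose from P12 to P28, by 1.17 ± 0.21, 0.92 ± 0.29 and 0.75 ± 0.20. They are among the 24 probe sets of the wider list that rose in that step. From P1 to P28 these 3 rose too, without overlap of the arrays. The differences were 1.73 ± 0.21, 1.33 ± 0.29 and 0.83 ± 0.20 (adjusted p = 3.46e-05, 0.00295 and 0.00556, limma). All 4 probe sets of Kitl are among the 27 of the wider list that rose from P1 to P28. Unlike the probe sets of Kit, 3 of the 4 were above the background line on all arrays.

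**Figure D4:**
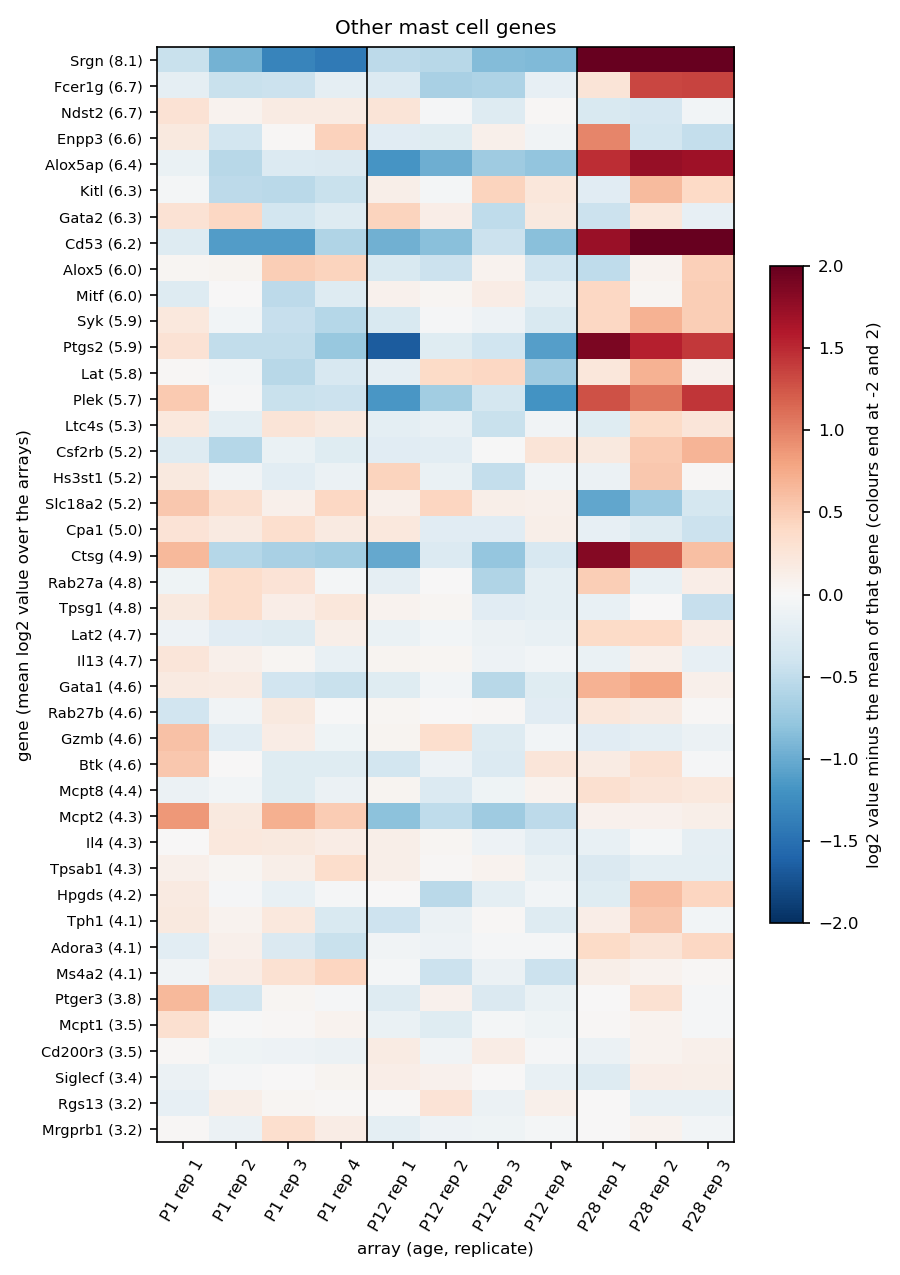
Each row is a gene of the wider mast cell list, by its brightest probe set, and each column is an array. Colour shows the log2 value minus the mean of that gene over the 11 arrays, and rows run from the highest to the lowest mean. Mcpt2 is high at P1 and low at P12, while Srgn, Cd53, Alox5ap, Ptgs2 and Plek are high at P28.

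The genes most like Cma1 and Cpa3 in pattern were sought among 16275 genes that are no members, by the root mean square difference of the profiles over the 11 arrays after each was centred on its own mean. Cpa3 itself was closer to Cma1 (0.28) than all of these (0 were closer), and likewise Cma1 to Cpa3. The nearest to Cma1 were Reps2 (0.41), Syt14 (0.43), the sarcoplasmic reticulum peptide Sln (0.46), the secreted matrix protein Cthrc1 (0.47) and Zfp945 (0.48). The nearest to Cpa3 were Zfp945 (0.35), the phosphatase Ptprv (0.43), the microfibril protein Mfap2 (0.46), Tmtc1 (0.47) and the hyaluronan synthase Has2 (0.47). Sln went from 8.43 ± 0.21 to 6.60 ± 0.32 and 6.69 ± 0.19 and Mfap2 from 8.33 ± 0.17 to 7.25 ± 0.30 and 8.07 ± 0.17 over P1, P12 and P28 (SD, n = 4, 4 and 3). Mcpt2 stood at 0.57 from Cma1, with 32 genes closer, and at 0.50 from Cpa3, with 13 genes closer. This ranking was made over the same arrays that chose both genes and carries no test.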

How the data were processed

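RNA of GFP-positive cells, extracted with a column kit and biotin-labelled per the labels' protocols, was measured on 11 Affymetrix 3' expression arrays. The authors deposited log2 levels made with RMA, 1 for each probe set and array. The submitters' processing notes name Affymetrix Expression Console, RMA and affy. Versions, roles and a genome build are not given in the sources used here. Values were used as deposited, and 0 value columns belonged to no sample.

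Of 45101 probe sets, 34958 carried 1 symbol in the platform annotation, 932 several and 9211 none, and the 64 manufacturer controls were not tested. The Entrez identifiers of all 7 members were found in RefSeq (GRCm38.p6). Differences were fitted with limma 3.58.1 in R 4.3.3 on group means of all 11 arrays (lmFit, contrasts, eBayes, two-sided, 8 residual and 5.82 prior degrees of freedom) and adjusted by Benjamini-Hochberg over 45037 probe sets. The fit was tested on simulated data. "Rose" and "fell" mean an adjusted p under 0.05. The precision is limited by the number of arrays. The members and lists were chosen with earlier results of these data known. For P12 against P1 and P28 against P1 the members have no test.

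Named were all members, wider-list genes whose brightest probe set passed, the 3 brightest of each list where it bears on a member, and the 5 closest patterns. Deviations from the age mean of same-numbered P1 and P12 arrays correlated at 0.143 to 0.311 over probe sets. Of the P1 arrays only replicate 3 matched its own number best at P12, and the best matches stayed within the array sets. Same-numbered arrays with P28 correlated at -0.122 to 0.0931, though P1 replicates 1, 2 and 3 each matched their own number best there. Whether the numbers pair arrays thus cannot be told, and the replicate number was a block in an alternative only. Other alternatives were scaling, filters, 1 value per gene, moderation, array weights, the array set, a Gapdh 3' to 5' covariate and leaving out each array.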

Additional observations from a re-analysis of the deposited data

Results flagged for a closer look

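In groups of 4 arrays, 42 sets of values (each mast cell probe set and each marker list of another cell type at P1 and P12) were searched for 1 array far from the other 3, and 3 were found. Chance alone marks about 1 in 20 such groups. The first probe set of Hdc was at 5.03 in P12 replicate 4, below the 5.58 to 5.64 of the other P12 arrays, while the second probe set of Hdc did not set that array apart. The summed level of the neutrophil list was 10.8 in P1 replicate 1 against 9.04 to 9.14 on the other P1 arrays. The summed level of the macrophage list was 10.3 in the same array against 11.1 to 11.2. That array was also the lowest of its age for Cma1 (6.77) and Cpa3 (6.02). It was the highest for the second probe set of Hdc (5.52) but the lowest for the first (5.46).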

How the results depend on the processing

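Cma1 and Cpa3 kept their sign in all 3 comparisons under every alternative run. Cma1 ranged from -2.27 to -1.95 in P12 minus P1, from 0.57 to 0.88 in P28 minus P12 and from -1.52 to -1.20 in P28 minus P1. Cpa3 ranged from -2.15 to -1.93, from 0.92 to 1.37 and from -1.11 to -0.66. With the probe sets of a gene averaged, Kit was at 0.26 in P28 minus P12 and passed (adjusted p = 0.0354), which reverses the sign of its first probe set. That value averages a probe set that rose with one that did not.

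Leaving out dim probe sets kept 3 of the 10 member probe sets and 18 of the 71 wider ones. By that construction 2 members rose from P12 to P28, 2 were higher there without overlap, 1 was lower at P12 than at P1, and 1 was higher and 1 lower at P28 than at P1. In the wider list 9 rose and 0 fell from P12 to P28, and 12 rose and 1 fell from P1 to P28. Of all 22519 probe sets kept, 4367 rose and 4793 fell from P12 to P28, and 6131 rose and 4526 fell from P1 to P28. By array order, 4542 of these were higher at P28 than at P12 and 1004 lower at P12 than at P1. Between P1 and P28, 6451 were higher and 4777 lower in that way. With 1 probe set per gene, 2 of 7 members were higher at P28 than at P1, where 3922 of all 18193 genes were. Of the 42 wider genes 13 rose and 1 fell from P12 to P28, and 15 rose from P1 to P28. Over all genes these counts were 2860, 2856 and 3664. With averaged probe sets these wider counts were 15, 1 and 14, beside 3120, 2736 and 3933 of all 18193 genes. Without _x_at and _s_at probe sets 2 members were higher at P28 than at P1 (7643 of all 40508 were), and after median centring 1 was lower (8522 of all 45037 were). In fits of 2 ages, 1 wider probe set rose from P1 to P12 and 1 fell from P12 to P28, where 1513 and 6508 of all did. With the Gapdh covariate 1 wider probe set fell in P28 against P12 and 1 in P28 against P1, and in the latter 3 fell after quantile normalization. With the replicate block 4 fell in P28 against P1, and the Fcer1a call in P28 against P12 ended (0.31, adjusted p = 0.0802), while the block ended no other member's call. In the wider list, by the brightest probe set, it ended the calls of Adora3 in P28 against P12 and of Tpsab1, Ndst2 and Mcpt2 in P28 against P1. The causes were not tested.

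Leaving out each array in turn gave 5 to 7 members that rose and 0 that fell from P12 to P28. Over all 45037 probe sets 5082 to 6200 then rose and 5190 to 7263 fell. Members lower at P28 than at P12 without overlap were 0 to 1, where 8971 to 11623 of all were. Wider probe sets that rose and fell were 0 to 1 and 1 to 3 in P12 against P1, 18 to 25 and 1 to 2 in P28 against P12, and 20 to 28 and 3 to 7 in P28 against P1. Over all probe sets 635 to 1556 rose and 371 to 718 fell in P12 against P1. In P28 against P1, 6694 to 8039 of all rose and 6114 to 7862 fell. The 2 wider probe sets that fell from P12 to P28 became 1 without P12 replicate 2 or 3 or any P28 array, and the 2 from P1 to P12 became 3 without P1 replicate 1 or P12 replicate 3. The position of the background line sets how many arrays hold a member. Without the added unit Cpa3, Mcpt4, the second Hdc probe set and the first of Kit were above it on all 11 arrays, and with 2 units Cma1 on 7.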
